A study of Mus musculus with 15 samples.

Results

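Kidney miRNAs of old mice (24 months) were compared with those of middle-aged mice (12 months) in 10 small RNA libraries, 5 at each age, out of 15 libraries in the series. Each library came from the kidney of 1 male C57BL/6 mouse on standard chow with no other treatment or allele named, and the remaining 5 libraries came from mice aged 3 months. The members were chosen by the age given in the labels, 12-month mice 17 to 21 and 24-month mice 31 to 35, so no measured value entered the choice. The mice of the groups carry different numbers, but no label gives a cage, collection day or sequencing batch, so p-values measure only the spread between these samples. Whole kidney was extracted, so fewer cells of a type and less RNA per cell cannot be told apart in any value below.

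Mature miRNAs are cut from hairpin precursors, mainly as a 5p or a 3p arm, and guide silencing complexes to messenger RNAs through bases 2 to 8, the seed. miRNAs with the same seed form a family with overlapping targets. In the kidney the miR-30 family, miR-10a, miR-192 and miR-194 and the miR-200 family are typical of tubule epithelium. miR-21 and the miR-199 and miR-214 genes are known for their activity in injured and fibrotic kidneys, and the miR-29 family for repressing collagens.

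A library held 12.2 to 20.7 M counts over the 10 mice, and 665 of 1153 sequences had enough counts to be tested, of which 488 carried a mouse name, 159 the name of another species and 18 a predicted name. Levels are given in CPM, the count of a sequence relative to the whole library after TMM scaling, in the order of the mouse numbers, 17 to 21 at 12 months and 31 to 35 at 24 months. The 11 miRNAs listed for renal tubule were all tested and took 29.3% ± 0.967 of the counts at 12 months and 30.6% ± 1.08 at 24 months (SD, n = 5 each), so markers of the labelled tissue were abundant in each mouse. Markers of liver and pancreas were low: the hepatocyte miR-122-5p had 2.77 to 29.7 CPM, and the pancreas list took 0.0126% of the counts at 12 months and 0.0104% at 24 months. Sequences under names that belong to ribosomal RNA (such as mir-6236 and mir-6240) summed to 13.3 to 52.4 CPM at 12 months. At 24 months they summed to 6.66 to 9.73 CPM in 4 mice and 35.2 CPM in mouse 32. The part of this level in the results was not tested otherwise, and fits that take this level into account are given at the end.

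No miRNA passed the threshold between 24 and 12 months. An adjusted p under 0.05 was reached by 0 (0%) of the 665 in the quasi-likelihood test of edgeR with Benjamini-Hochberg adjustment, and the smallest adjusted p was 0.217. At an unadjusted p under 0.05 there were 59 sequences (8.87%), 35 of them higher at 24 months (5.26%) and 24 lower (3.61%). DESeq2 and limma also called 0 sequences, with 62 and 58 at an unadjusted p under 0.05. The levels of the 5 older and the 5 middle-aged mice did not overlap for 14 sequences (2.11%), 12 higher (1.8%) and 2 lower (0.301%) at 24 months.

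The balance of directions depended on how the libraries were scaled and on single mice. With TMM factors 59.3% of the sequences at an unadjusted p under 0.05 were higher at 24 months, against 45.2% with RLE factors and 30.8% with scaling to total counts. With TMM factors it was 35.8% without mouse 19, 39.4% without mouse 21, 40.4% without mouse 31, and 38.5% when at least 10 counts were required in every library. The share went the other way, to 64.3% without mouse 18, 64.2% without mouse 35 and 65.5% with the rRNA-derived level as a term. The sequences without overlap numbered 5 higher and 8 lower with total counts. Most differences were small. For the 302 mouse names that averaged 10 CPM or more, the median size of the log2 change was 0.07 with a median SE of 0.08, with 4 over 0.5 in size and 0 over 1. A log2 change over 1 in size was found for 17 sequences, none with a mean above 6.45 CPM, and 10 of them carried the name of another species and were lower at 24 months.

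**Figure D1:**
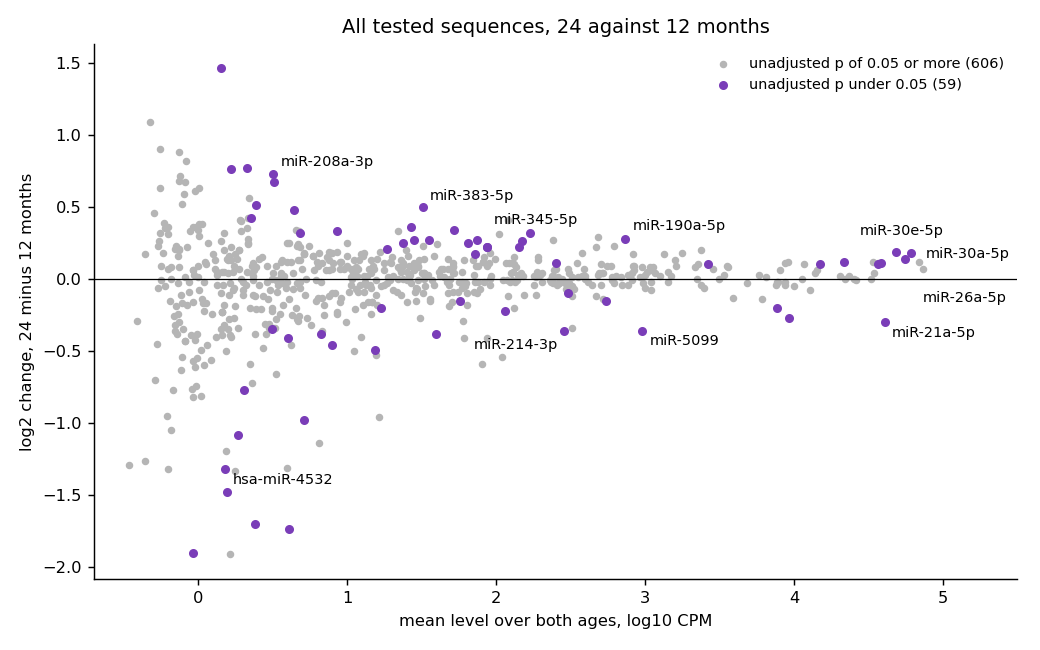
Log2 change of each of the 665 tested sequences, 24 minus 12 months (y axis), against its mean level over both ages (x axis, log10 CPM, a log axis), with the 59 sequences at an unadjusted p under 0.05 in purple. Changes spread widely below about 10 CPM and stay within narrow limits among abundant miRNAs, where miR-30a-5p, miR-30e-5p and miR-26a-5p lie above 0 and miR-21a-5p below.

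Mice of the same age were a little more alike than mice of different ages, and the ranges overlapped. Over the same 302 miRNAs, the SD of the log2 difference between a pair of mice had a median of 0.264 within 12 months (10 pairs), 0.222 within 24 months (10 pairs) and 0.269 between ages (25 pairs), and 8 of 10 mice had a lower median to their own age than to the other. Mouse 32 was the 24-month mouse farthest from its own age, with a median of 0.315 to the other 24-month mice and 0.266 to the 12-month mice. The other 4 had medians of 0.205 to 0.222 within their age.

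The sequences of miR-30 and miR-26 members, the miR-190 pair, miR-345-5p and miR-21a-5p are shown here, because the results return to them and the families share a seed. Mature sequences were taken from RefSeq (GRCm38.p6), in which 44 of 58 names looked up were matched. The seed, bases 2 to 8 of the RefSeq sequence, is in capitals. Of those shown, only miR-26a-5p and miR-21a-5p are the same as the deposited sequence, and the others differ from it. The deposited miR-345-5p starts 1 base earlier, so its bases 2 to 8 are not those in capitals. Positions in a substitution count from 1 at the 5′ end, with the base of the first-named miRNA first.
miR-30a-5p: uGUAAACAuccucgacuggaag
miR-30e-5p: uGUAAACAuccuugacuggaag
miR-30c-5p: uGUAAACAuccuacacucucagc
miR-26a-5p: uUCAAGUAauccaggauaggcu
miR-26b-5p: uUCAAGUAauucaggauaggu
miR-190a-5p: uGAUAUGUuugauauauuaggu
miR-190b-5p: uGAUAUGUuugauauuggguug
miR-345-5p: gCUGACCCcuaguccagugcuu
miR-21a-5p: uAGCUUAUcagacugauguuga

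miR-30a-5p and miR-30e-5p differ by 1 substitution, C13U, outside the seed, and miR-26a-5p and miR-26b-5p by C11U and C21U over the 21 bases of the shorter one. miR-190a-5p and miR-190b-5p share their first 15 bases and differ at the 7 that follow. Counts of such near-identical miRNAs are uncertain to the extent that the counting could not tell their reads apart.

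The miR-30 family, with the smallest p of all sequences in miR-30a-5p, was the group with the most members at an unadjusted p under 0.05. It is among the most abundant families of kidney epithelium and podocytes, and Mir30a (GRCm38, chr1:23272264-23272345, outside annotated host genes) gives its 5p arm miR-30a-5p. Levels of miR-30a-5p were 53336, 56762, 58182, 58312 and 59444 CPM at 12 months and 64277, 60439, 64390, 68641 and 66445 CPM at 24 months. Each old mouse lay above each middle-aged mouse, with mouse 32 the lowest of the old and mouse 17 the lowest of all. The means were 57207 ± 2364 and 64839 ± 3038 CPM (SD, n = 5 each). This was a difference of 0.18 ± 0.04 (SE) on the log2 scale, or 13.3% (unadjusted p = 0.000464, adjusted p = 0.217). At 3 months the mean was 59673 ± 2603 CPM (n = 5). The groups stayed apart with RLE factors and with total counts, and the log2 change was 0.13 to 0.19 over 22 alternatives.

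miR-30e-5p, which differs from it by the single base above, is cut from Mir30e on chr4:120772595-120772701, in an intron of Nfyc on the same strand. It had 41811, 44192, 45195, 46446 and 48814 CPM at 12 months and 50931, 47671, 51862, 56577 and 51935 CPM at 24 months. Only mouse 32 lay within the range of the middle-aged mice. The log2 change was 0.19 ± 0.05 (SE, unadjusted p = 0.00264, adjusted p = 0.274).

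miR-30d-5p (Mir30d, chr15:68341207-68341294, overlapping exons of the non-coding genes Gm37296 and Gm20732) followed with 19465, 21171, 20146, 21016 and 21640 CPM against 22385, 21559, 22894, 23131 and 22268 CPM. Here too mouse 32 was the 1 old mouse inside the middle-aged range. Its log2 change was 0.12 ± 0.04 (unadjusted p = 0.00626, adjusted p = 0.347), and 0.07 with total counts. miR-30c-5p, the most abundant miRNA of these kidneys and encoded both by Mir30c-1 in Nfyc and by Mir30c-2 on chr1:23291688-23291805, overlapped between ages. It had 69070 to 77549 CPM (median 70666) at 12 months and 72315 to 83820 CPM (median 73135) at 24 months, and a log2 change of 0.07 ± 0.05 (unadjusted p = 0.147). miR-30b-5p (Mir30b, chr15:68337415-68337510) had 13442 to 14755 CPM at 12 months and 13252 to 15678 CPM at 24 months, a log2 change of 0.06 ± 0.05 (unadjusted p = 0.239).

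**Figure D2:**
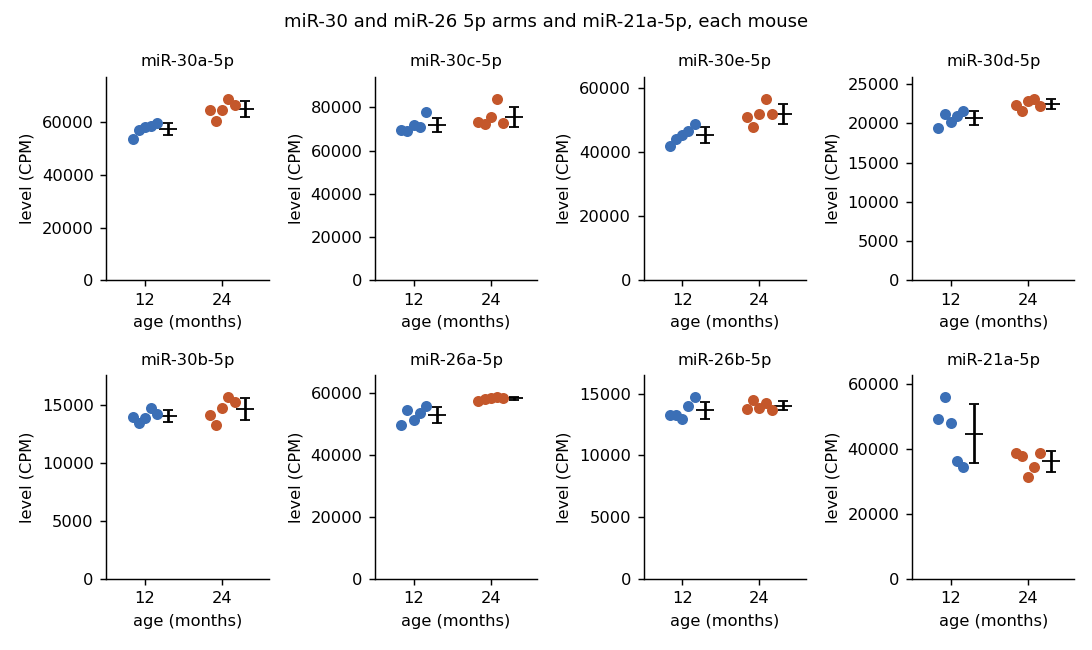
Level in CPM (y axis, from 0) of the 5p arms of the miR-30 and miR-26 families and of miR-21a-5p in each mouse at 12 months (blue) and 24 months (orange), with black bars for the mean and SD of 5 mice. For miR-30a-5p and miR-26a-5p the orange points all lie above the blue ones, whereas miR-30c-5p, miR-30b-5p and miR-26b-5p overlap and miR-21a-5p varies most at 12 months.

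The passenger arms of the family had lower levels. Their log2 changes were 0.11 or less, against 0.06 to 0.19 for the 5p arms. miR-30a-3p had a mean of 2554 ± 108 CPM at 12 months and 2743 ± 77.9 CPM in the 24-month mice (SD over 5 mice), with a log2 change of 0.10 ± 0.04 (unadjusted p = 0.0232), and 3 of 5 old mice were above the highest middle-aged one. miR-30c-2-3p had 231, 245, 245, 243 and 249 CPM at 12 months and 262, 261, 275, 260 and 254 CPM at 24 months. The groups did not overlap, although they did with total counts, and the log2 change was 0.11 ± 0.05 (unadjusted p = 0.0395, adjusted p = 0.496). With total counts the log2 changes of miR-30a-3p and miR-30c-2-3p were 0.05 and 0.06. The log2 changes of miR-30e-3p, miR-30d-3p, miR-30c-1-3p and miR-30b-3p were 0.02, 0.07, -0.01 and -0.07, each with an SE of 0.05 to 0.08. Both arms of Mir30a thus had a positive log2 change, while Mir30e gave 0.19 for its 5p arm and 0.02 for its 3p arm.

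Altogether 11 of 11 members of the miR-30 family were tested and 9 had a positive log2 change, with a median of 0.07 against 0.015 over all 665 sequences. At an unadjusted p under 0.05 there were 5 members, all higher at 24 months, beside 8.87% of all sequences and 5.26% higher. Under total counts the family median was 0.02. The seed of the 5p arms stood in 12 tested sequences, 6 of them under mouse names. These took 20.6%, 20.4%, 21.3%, 21.7% and 22.5% of all counts at 12 months and 21.8%, 21.6%, 22.8%, 23.8% and 22.6% at 24 months, so that mice 31 and 32 lay within the middle-aged range. Among the sequences under names of other species, ssc-miR-30a-5p had 58.7 and 69.9 CPM on average (log2 change 0.25, unadjusted p = 0.0182). The sequence named tgu-miR-30d-5p and tgu-miR-30a-5p had 17.1 and 19.8 CPM (0.21, unadjusted p = 0.0277). These were chosen after seeing their values, and the other 4 under such names had log2 changes of -0.01 to 0.38 and unadjusted p-values of 0.41 or more. The deposited table lists them apart from the mouse miRNAs, and they are not counted as members.

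miR-26a-5p showed the second smallest p. The miR-26 family is known to restrain cell cycle genes, and its genes lie inside genes of the CTD small phosphatases: Mir26a-1 (chr9:119031776-119031904) in an intron of Ctdspl, Mir26a-2 (chr10:126995530-126995613) overlapping an exon of Ctdsp2, and Mir26b (chr1:74394309-74394412) in an intron of Ctdsp1. Levels of miR-26a-5p were 49691, 54678, 51324, 53656 and 55834 CPM at 12 months and 57709, 58266, 58524, 58760 and 58560 CPM at 24 months. Every old mouse was above every middle-aged mouse, and the old mice were closely alike, with an SD of 406 CPM against 2502 CPM. The means were 58364 and 53037 CPM (n = 5 each), a log2 change of 0.14 ± 0.03 (SE, unadjusted p = 0.000653, adjusted p = 0.217). With scaling to total counts the ages overlapped and the log2 change was 0.09.

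The other members of the family were not at an unadjusted p under 0.05, and their difference from miR-26a-5p was not tested. miR-26b-5p, with the same seed, had 12939 to 14719 CPM at 12 months and 13714 to 14537 CPM at 24 months (log2 change 0.04 ± 0.04, unadjusted p = 0.373). miR-26b-3p and miR-26a-2-3p had log2 changes of -0.04 ± 0.10 and -0.16 ± 0.15, and miR-26a-1-3p, at about 1 CPM, one of 0.38 ± 0.35. Hence 1 of 5 members was at an unadjusted p under 0.05, beside 8.87% of all sequences, with a family median of 0.04.

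Several less abundant miRNAs ranked next, and most were higher at 24 months. miR-190a is cut from an intron of Tln2, the gene of talin 2 (Mir190a, chr9:67236632-67236751). Its 5p arm had 649, 589, 626, 737 and 726 CPM at 12 months and 724, 719, 837, 927 and 821 CPM at 24 months. Mice 31 and 32 lay within the middle-aged range and the other 3 above it, and the log2 change was 0.28 ± 0.09 (SE, unadjusted p = 0.00747, adjusted p = 0.358). The 3p arm had 25.4, 21.5, 22, 22.3 and 27 CPM and 28.8, 27.2, 27.6, 32.5 and 35.4 CPM, without overlap, though barely so between mouse 21 and mouse 32. Its log2 change was 0.36 ± 0.13 (unadjusted p = 0.0119, adjusted p = 0.425), and with RLE factors the ages overlapped. miR-190b-5p, from Mir190b on chr3:90070020-90070099 and chosen after seeing its values, shares the seed and had 1.59 to 3.45 CPM at 12 months and 3.15 to 4.43 CPM at 24 months (log2 change 0.67 ± 0.18, unadjusted p = 0.00212, adjusted p = 0.274).

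miR-383-5p (Mir383, chr8:38252131-38252205, intron of Sgcz) had the largest log2 change among mouse miRNAs of 10 CPM or more whose ages did not overlap. It had 19.6, 26.7, 31.1, 31 and 24.7 CPM at 12 months and 35.3, 35.3, 36.9, 41.6 and 39.1 CPM at 24 months. The ages were apart under the 3 scalings, and the means were 26.6 ± 4.81 and 37.7 ± 2.69 CPM (SD, n = 5 each). The log2 change was 0.50 ± 0.15 (SE), or 1.41-fold, with an unadjusted p of 0.00511 and an adjusted p of 0.309. The 3-month mean was 32.9 ± 8.18 CPM, between the others.

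miR-345-5p (Mir345, chr12:108836973-108837068, overlapping an exon of Slc25a47) had 124.9 to 139.1 CPM at 12 months. The old mice had 147.4, 131.5, 166.8, 153.8 and 165.8 CPM, all above the middle-aged mice but for mouse 32 (log2 change 0.22 ± 0.06, unadjusted p = 0.00309, adjusted p = 0.274). miR-664-3p (Mir664, chr1:185242966-185243043, intron of Rab3gap2) had 75.1 to 87.6 CPM and 82.5 to 105 CPM, with mouse 31 in the middle-aged range (0.22 ± 0.07, unadjusted p = 0.00753). miR-101c (Mir101c, chr9:3038669-3038743) had 23.5 to 28.9 CPM and 28.6 to 34.2 CPM, with only mouse 32 in the range (0.27 ± 0.08, unadjusted p = 0.00371). The deposited sequence of miR-101c has 22 bases against 19 in RefSeq, and whether its reads came from Mir101c was not tested. miR-152-5p (Mir152, chr11:96850370-96850480, intron of Copz2) had 20.2 to 23.6 CPM and 20.7 to 29.9 CPM (0.25 ± 0.09, unadjusted p = 0.0104), again with mouse 32 alone in the range. For these 4 the adjusted p was 0.274 to 0.425.

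The other mouse miRNAs of 10 CPM or more without overlap had log2 changes under 0.2. miR-192-3p, the lesser arm of a miRNA typical of renal tubules (Mir192, chr19:6264836-6264945), had 67.2, 66.4, 68.2, 70.4 and 69.3 CPM at 12 months and 72.7, 75.7, 79.0, 77.0 and 79.5 CPM at 24 months (log2 change 0.17 ± 0.07, unadjusted p = 0.0270). Its main arm miR-192-5p had 23300 and 23700 CPM on average (0.02 ± 0.04, unadjusted p = 0.595). miR-335-3p (Mir335, chr6:30741299-30741396, intron of the imprinted gene Mest) had 21.2 to 22.7 CPM and 23.3 to 25.4 CPM (0.13 ± 0.07, unadjusted p = 0.0653), both below its 3-month mean of 32.5 ± 2.59 CPM. let-7b-5p (Mirlet7b, chr15:85707316-85707415, overlapping an exon of Lncppara) had 8585 to 8976 CPM and 9059 to 10451 CPM (0.12 ± 0.06, unadjusted p = 0.0521), with mouse 32 the highest. With total counts these 3 overlapped between ages, and the log2 changes of miR-335-3p and let-7b-5p were 0.08 and 0.07.

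**Figure D3:**
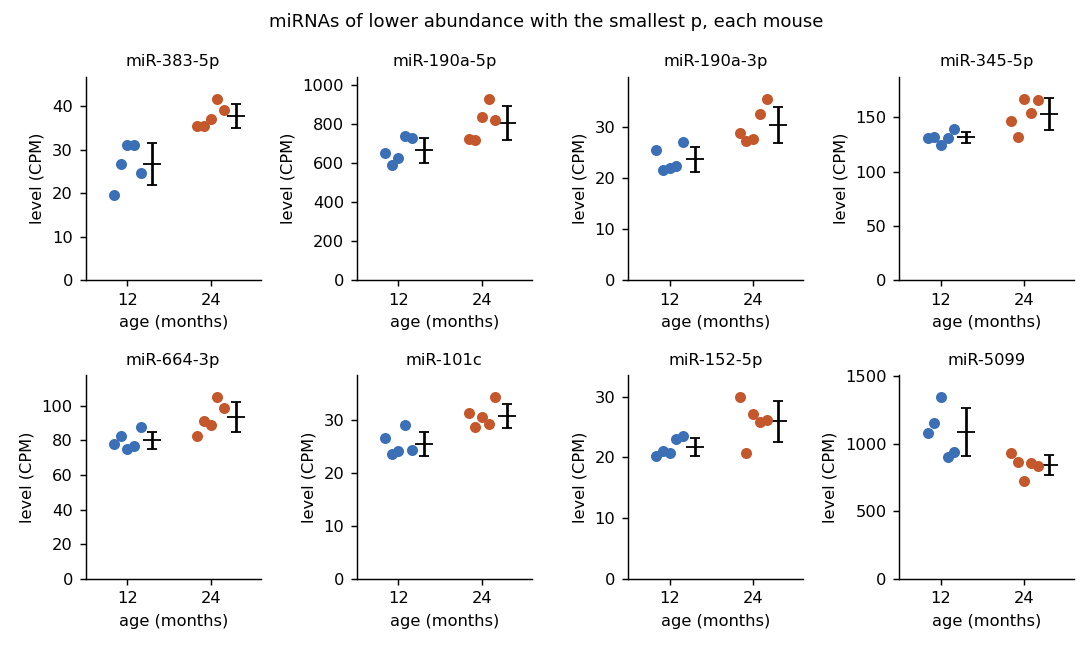
Level in CPM (y axis, from 0) of 8 less abundant miRNAs in each mouse at 12 months (blue) and 24 months (orange), with black bars for the mean and SD of 5 mice. miR-383-5p and miR-190a-3p show no overlap between ages, miR-345-5p, miR-101c and miR-152-5p have 1 old mouse (mouse 32) among the middle-aged ones, and miR-5099 lies lower at 24 months in 4 of 5 mice.

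Of the sequences with lower values at 24 months, miR-5099 had the smallest p among mouse miRNAs of 10 CPM or more. Mir5099 lies on chr12:36816205-36816278 outside annotated host genes. Its levels were 1079, 1153, 1342, 904 and 941 CPM at 12 months and 933, 866, 725, 858 and 831 CPM at 24 months. Mouse 31 lay in the middle-aged range and the other 4 old mice below it, and with total counts the ages did not overlap. The log2 change was -0.36 ± 0.13 (SE, unadjusted p = 0.0115, adjusted p = 0.425).

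miR-21a-5p, a miRNA known to increase in injured and fibrotic kidneys, is cut from Mir21a (chr11:86584052-86584164), overlapping an exon of Vmp1. It had 49405, 55962, 47877, 36265 and 34337 CPM at 12 months and 38865, 37990, 31310, 34519 and 38635 CPM at 24 months. The middle-aged mice differed widely: mice 17, 18 and 19 lay above all old mice, and mice 20 and 21 among them. The means were 44769 ± 9187 and 36264 ± 3277 CPM (SD, n = 5 each), against 34408 ± 4925 CPM at 3 months. The log2 change between 24 and 12 months was -0.30 ± 0.13 (unadjusted p = 0.0273, adjusted p = 0.496).

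The 18 miRNAs listed for kidney fibrosis and injury had 15 tested sequences, 10 lower and 5 higher at 24 months, with a median log2 change of -0.19 against 0.015 over all sequences. At an unadjusted p under 0.05 there were 3 lower members, miR-21a-5p, miR-214-3p and the sequence shared by miR-199a-5p and miR-199b-5p, and 1 higher member, miR-210-3p, which marks hypoxia, beside 3.61% lower and 5.26% higher over all sequences. miR-214-3p had 314.3, 428.9, 322.0, 269.7 and 263.3 CPM at 12 months and 251.7, 278.2, 241.0, 209.7 and 268.4 CPM at 24 months (log2 change -0.36 ± 0.15, unadjusted p = 0.0312). Mice 17, 18 and 19 again lay above all old mice, and mice 20 and 21 among them. The list has miR-199a-3p, which the table does not name. Its RefSeq sequence is the same as that of miR-199b-3p, which is not counted above and had 10361, 11550, 11148, 9283 and 8013 CPM at 12 months and 9117, 8330, 7487, 7529 and 9175 CPM at 24 months (log2 change -0.27 ± 0.11, unadjusted p = 0.0248). Every old mouse lay below the 12-month mean of 10100 CPM for this sequence. The ages overlapped, with only mice 33 and 34 below each middle-aged mouse. The shared 5p sequence of miR-199 had means of 8220 and 7150 CPM (-0.20 ± 0.09, unadjusted p = 0.0439). miR-210-3p had 61.6 to 73.8 CPM at 12 months and 83.6 to 92.3 CPM at 24 months in 4 mice, but 58.4 CPM in mouse 32 (0.27 ± 0.11, unadjusted p = 0.0246). miR-132-3p, miR-212-3p and miR-212-5p, which come from 1 cluster, had log2 changes of -0.41 ± 0.23, -0.50 ± 0.33 and -0.53 ± 0.25. The miR-29 members miR-29a-3p, miR-29b-3p and miR-29c-3p had 0.00, 0.10 and 0.05. The summed level of the list was 105910 to 131433 CPM at 12 months and 101848 to 109994 CPM at 24 months, so the ages overlapped. The adjusted p of each member was 0.496 or more.

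The mesenchymal and smooth muscle list had 8 tested sequences, 4 higher and 4 lower, with a median of 0.02. These counts and the summed level below leave out miR-199b-3p, which has the sequence of the listed miR-199a-3p. Its log2 change was -0.27 ± 0.11 (unadjusted p = 0.0248). miR-143-3p, which with miR-145a marks smooth muscle and related stromal cells, had 35460, 36344, 34961, 35833 and 35136 CPM at 12 months and 39991, 37296, 38667, 36187 and 38934 CPM at 24 months. Mouse 34 lay within the middle-aged range and the other 4 above it (log2 change 0.10 ± 0.03, unadjusted p = 0.00821, adjusted p = 0.364). With total counts its log2 change was 0.05. The other arm of its hairpin, miR-143-5p, had a log2 change of -0.03 ± 0.07, and miR-145a-5p one of 0.18 ± 0.10 (unadjusted p = 0.0796). Both arms of miR-214 and the shared miR-199 sequence were lower at an unadjusted p under 0.05, and miR-214-5p had a log2 change of -0.38 ± 0.14 (unadjusted p = 0.0174). With miR-143-3p these made 3 members lower and 1 higher, beside 3.61% lower and 5.26% higher over all sequences. The summed level of the list, 81950 to 85429 CPM at 12 months and 83074 to 87812 CPM at 24 months, overlapped.

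Of the renal tubule list, 9 of 11 members were higher and 2 lower at 24 months, with a median log2 change of 0.07 and 4 members at an unadjusted p under 0.05, beside 8.87% of all sequences. The first and second below are also members of the miR-30 family. They were miR-30a-5p, miR-30e-5p, miR-190a-5p and miR-204-5p, a miRNA abundant in kidney and retinal epithelium. miR-204-5p had 121.7 to 154.1 CPM at 12 months and 148.5 to 178.9 CPM at 24 months (0.26 ± 0.10, unadjusted p = 0.0243). Others of the list were nearly level: miR-194-5p had a log2 change of -0.02 ± 0.04, miR-200b-3p of 0.00 ± 0.03 and miR-200c-3p of 0.04 ± 0.06. miR-10a-5p, encoded among the Hox genes (Mir10a, chr11:96317160-96317275), had 61990 to 71797 CPM at 12 months and 65287 to 77975 CPM at 24 months (0.12 ± 0.07, unadjusted p = 0.133). With total counts the median of the list was 0.02.

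The miR-200 family, which keeps epithelial cells from mesenchymal transition, had 9 tested members with a median of 0.00. miR-200a-3p had 21981 ± 845 and 21995 ± 928 CPM (SD, n = 5 each), with an approximate 95% interval of the log2 change of -0.07 to 0.08, and miR-200b-3p one of -0.06 to 0.06. Of these 9, 1 was at an unadjusted p under 0.05, beside 8.87% of all sequences. This was miR-141-5p, a low-abundance arm with 2.93 to 4.13 CPM at 12 months and 4.64 to 5.84 CPM at 24 months (0.48 ± 0.14, unadjusted p = 0.00369, adjusted p = 0.274). The ages did not overlap for miR-141-5p, as for 2.11% of all sequences. Its choice was made after seeing its values. The other arm, miR-141-3p, had 0.17 ± 0.08 (unadjusted p = 0.0596), and miR-200c-5p had -0.38 ± 0.38.

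The let-7 family, known for promoting differentiation, had 9 tested members, 6 higher and 3 lower, with a median of 0.04. They leave out let-7j, which the table gives without an arm and which had 302 and 288 CPM on average (log2 change -0.07 ± 0.06). Besides let-7b-5p, let-7c-5p had 36349 to 37467 CPM at 12 months and 40542, 42594, 36521, 38586 and 40769 CPM at 24 months, with mouse 33 in the middle-aged range (0.11 ± 0.05, unadjusted p = 0.0360, and 0.06 with total counts). let-7a-5p had a log2 change of 0.10 ± 0.04 (unadjusted p = 0.0321). let-7c-5p and let-7a-5p were the 2 members at an unadjusted p under 0.05, beside 8.87% of all sequences. let-7f-5p had 34008 ± 1754 and 34942 ± 1686 CPM (0.04 ± 0.04), and let-7g-5p and let-7i-5p had -0.01 and -0.03.

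**Figure D4:**
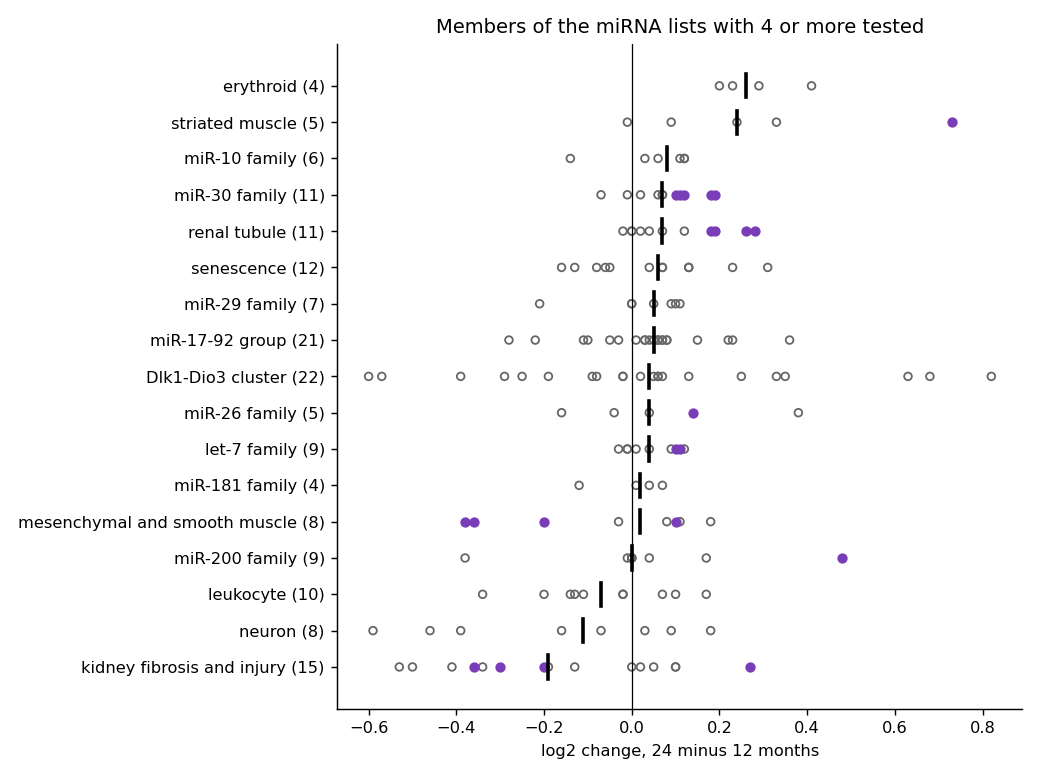
Log2 change, 24 minus 12 months (x axis), of each tested member of the miRNA lists with 4 or more tested sequences, with the number tested in brackets, the median as a black bar and members at an unadjusted p under 0.05 in purple. Medians lie between -0.19 for kidney fibrosis and injury and 0.26 for the erythroid list, and each list with 5 or more members has values on both sides of 0.

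Lists of blood, vessel and immune miRNAs held 0 members at an unadjusted p under 0.05, of 4 erythroid, 2 endothelial and 10 leukocyte members tested, beside 8.87% of all sequences. The 4 tested erythroid sequences were higher, with a median of 0.26, and their sum overlapped widely, with 2407 to 4819 CPM at 12 months and 2445 to 4842 CPM at 24 months. miR-451a, the leading one, had 1520 to 3291 CPM and 1605 to 3099 CPM (0.20 ± 0.22, unadjusted p = 0.387), and miR-486a-5p had 455 to 811 CPM and 387 to 991 CPM (0.23 ± 0.24, unadjusted p = 0.357). In the endothelial list miR-126a-3p had 25248 ± 986 and 25175 ± 600 CPM (SD, n = 5 each), with an approximate 95% interval of -0.11 to 0.10 on the log2 scale, and miR-126a-5p had a log2 change of -0.02 ± 0.07. Of 10 leukocyte members 7 were lower, with a median of -0.07. miR-146a-5p had 3355 to 5355 CPM at 12 months and 3237 to 4072 CPM at 24 months (-0.13 ± 0.15), miR-223-3p of myeloid cells had -0.20 ± 0.19 and miR-142a-5p -0.02 ± 0.14.

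Lists of other organs are given next. In the pancreas list, miR-375-3p, typical of pancreatic islets and other endocrine cells, had 135.9, 135.7, 126.3, 111.0 and 107.9 CPM at 12 months and 96.0, 110.3, 105.5, 107.4 and 109.4 CPM at 24 months (-0.22 ± 0.09, unadjusted p = 0.0300). Of the other pancreas miRNAs, miR-216a-5p and miR-217-5p were too low to test and miR-216b-5p was not listed. In the striated muscle list miR-208a-3p, cut from an intron of the cardiac myosin gene Myh6 (chr14:54949060-54949142), had 2.42, 1.65, 2.22, 2.94 and 2.61 CPM at 12 months and 3.78, 3.47, 5.14, 3.12 and 4.64 CPM at 24 months, without overlap (0.73 ± 0.19, unadjusted p = 0.00124, adjusted p = 0.274). It too was chosen after seeing its values. The more abundant muscle members miR-1a-3p and miR-133a-3p had -0.01 ± 0.17 and 0.24 ± 0.16. The neuron list had 3 members higher and 5 lower, with a median of -0.11. miR-124-3p had 53.4, 123, 63.3, 119 and 123 CPM at 12 months and 40.6, 114, 57.0, 36.3 and 72.2 CPM at 24 months, so that mice of the same age differed widely, against 3.01 ± 2.12 CPM at 3 months (-0.59 ± 0.38, unadjusted p = 0.135). The log2 change of miR-124-3p was -0.92 without mouse 32 and -0.24 with the rRNA-derived level as a term. miR-9-5p had 356 ± 41.4 and 402 ± 34 CPM (0.18 ± 0.09, unadjusted p = 0.0567) and miR-128-3p a log2 change of 0.03 ± 0.06.

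Lists tied to ageing and growth held 0 members at an unadjusted p under 0.05, beside 8.87% of all sequences. The senescence list had 7 members higher and 5 lower (median 0.06): miR-34a-5p, a target of p53, had 1513 and 1651 CPM (0.13 ± 0.12), miR-22-3p -0.08 ± 0.12 and miR-24-3p -0.05 ± 0.04. miR-335-3p, described above, is the 1 member without overlap of the 12 tested in this list, beside 2.11% of all sequences. The miR-17-92 group had 15 higher and 6 lower (median 0.05), with miR-92a-3p at 2093 ± 116 and 2211 ± 32 CPM (0.08 ± 0.05) and miR-93-5p at 0.05 ± 0.05. In the miR-10 family 5 of 6 were higher (median 0.08), with miR-10b-5p at 34994 ± 2049 and 37784 ± 2630 CPM (0.11 ± 0.08). The miR-29 and miR-181 families had medians of 0.05 and 0.02, with miR-181a-5p at 0.07 ± 0.06 and miR-181b-5p at 0.04 ± 0.07. Of the Dlk1-Dio3 cluster, an imprinted region with many miRNA genes, 22 of 100 members could be tested, 12 higher and 10 lower (median 0.04), and its most abundant member miR-127-3p had 52.8 ± 9.89 and 49.5 ± 6.02 CPM.

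Both arms of a hairpin could be compared for 173 pairs, of which 104 had changes in the same direction. Only 3 pairs, those of Mir30a, Mir190a and Mir214, had both arms at an unadjusted p under 0.05, with both arms of Mir30a and Mir190a higher and both of Mir214 lower at 24 months. Both arms of 1 hairpin come from 1 transcript, so they are not independent. An arm that several hairpins share, such as miR-30c-5p, stands in more than 1 pair, and its reads can come from each of those hairpins.

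Of 5 measures of the whole library, 0 passed the threshold after adjustment over the 5. The share of counts from 5p arms was 72.4%, 73.3%, 73.1%, 72.2% and 73.0% at 12 months and 73.6%, 73.4%, 73.2%, 74.1% and 73.6% at 24 months. Only mouse 33 lay within the middle-aged range, and the difference was 0.793 percentage points (exact permutation test, two-sided as for each measure, p = 0.0159 and after adjustment 0.0794). This share and the entropy below include the abundant 5p arms described above, such as miR-30a-5p, so they are not independent of those levels. The Shannon entropy of the shares, which is lower where fewer sequences hold more of the counts, was 5.58 ± 0.0143 bits at 12 months and 5.55 ± 0.0239 bits at 24 months (SD, n = 5 each, exact permutation p = 0.0317, adjusted p = 0.0794). The rRNA-derived level had means of 30.1 ± 16 and 14.0 ± 11.9 CPM (exact permutation p = 0.0952, adjusted p = 0.139). The share of counts in sequences whose ends differ from the reference was 56.6% ± 0.961 and 57.9% ± 1.24 (exact permutation, adjusted p = 0.139), and the total count 14.2 ± 1.73 and 16.4 ± 3.24 M (exact permutation, adjusted p = 0.222). With 5 against 5 mice the smallest p the test allows is 0.00794. Without mouse 32 the differences in entropy and in rRNA-derived level were -0.0452 bits and -21.5 CPM (exact permutation, adjusted p = 0.0397 for each).

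**Figure D5:**
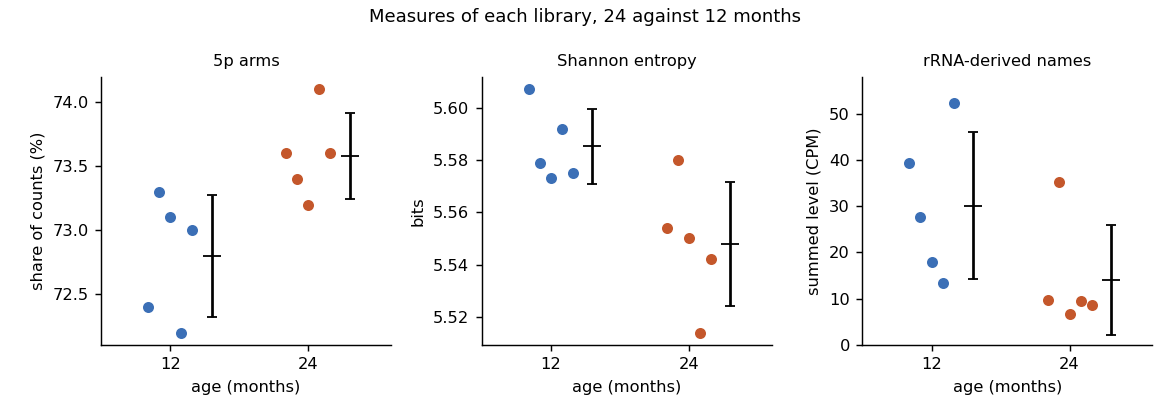
Share of counts from 5p arms (%), Shannon entropy of the shares (bits) and summed level of rRNA-derived names (CPM) in each library (y axes, only the last from 0) at 12 months (blue) and 24 months (orange), with black bars for the mean and SD of 5 mice. Mouse 32 stands at 35.2 CPM of rRNA-derived names, above the other 24-month mice at 6.66 to 9.73 CPM.

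Since 4 of 5 old mice had less of the rRNA-derived names than each middle-aged mouse, the values were also read without the libraries with most rRNA fragments, the summed level of sequences named after mir-6236 and mir-7641. Comparing only the libraries under 10 CPM of these fragments, 2 at 12 and 4 at 24 months, with the spread estimated over the 15 libraries, the log2 change was 0.18 for miR-30a-5p, 0.15 for miR-26a-5p, 0.21 for miR-30e-5p, 0.30 for miR-383-5p, -0.42 for miR-5099 and -0.23 for miR-21a-5p. The level was still not alike: the rRNA-derived names had 17.9 and 13.3 CPM in mice 19 and 20 and 6.66 to 9.73 CPM in the 4 old mice. This fit of edgeR gave 0 calls, with 50 sequences at an unadjusted p under 0.05. With the level as a term over all libraries the same miRNAs had 0.15, 0.14, 0.14, 0.53, -0.43 and -0.35. Of the sequences of low level, hsa-miR-4532 had 1.51 to 3.00 CPM at 12 months and 0.339 to 1.36 CPM at 24 months without overlap (log2 change -1.32 ± 0.36, unadjusted p = 0.00215, adjusted p = 0.274), with the highest old value in mouse 32. mir-6240-p5, itself one of the summed rRNA-derived names, had 1.66 to 3.01 CPM at 12 months and 0.352 to 0.565 CPM at 24 months in 4 mice, but 1.97 CPM in mouse 32 (-1.48 ± 0.52, unadjusted p = 0.0121). Both were chosen after seeing their values.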

How the data were processed

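Total RNA was extracted with Trizol, and libraries were made with the TruSeq small RNA kit and sequenced on a HiSeq 2500, per the labels, whose protocol speaks of fewer libraries than the 15 analysed. The authors removed adapter dimers, junk, low-complexity reads, common RNA families and repeats with ACGT101-miR. That filter can leave rRNA fragments under miRNA names. The deposited table gives estimated counts (expected counts, fractional where a read was shared) of the reads of an arm, variant ends included, and, beside them, the authors' normalized signal, each count times a constant per library, with a genome build not given in the sources used here. Of 9546 whole values above 0 in sequences listed once, 49 were 1 to 4, so most values under 5 reads are listed as 0. Of 526 hairpin positions under mouse names, 524 lay on a miRNA gene of GENCODE vM21 (GRCm38) on the same strand, so positions are given on that build.

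The 1318 lines were summed by sequence to 1153 sequences and rounded to whole numbers. edgeR 4.0.16 (R 4.3.3) kept 665 sequences (filterByExpr, minimum count 10, minimum total 15), together 99.99% or more of every library, scaled libraries by TMM (factors 0.9591 to 1.0373) and fitted a quasi-likelihood model with 1 mean per age over the 15 libraries, since sharing the spread over 3 ages gives more residual degrees of freedom. Adjusted p-values (Benjamini-Hochberg) cover all 665 sequences, with a threshold of 0.05. DESeq2 1.42.0 and limma 3.58.1, the latter on log2 of the normalized signal plus 1, served as alternatives. Summed levels of lists and shares use total counts. Approximate intervals come from the SE. The edgeR test was checked on simulated counts.

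The text names, among mouse names that averaged 10 CPM or more in the 10 libraries, the 12 with the smallest p, the 8 with the largest log2 change and no overlap between ages, the 10 most abundant, the 2 most abundant members of each list, each member of the miR-30 and miR-26 families, and miR-124-3p, added for its change against 3 months in an earlier description of these data, 55 in all. Other names stand for members of a list, for the other arm or copy of a named miRNA, or are said to be chosen after seeing their values. Members and lists were chosen with earlier results of these data known.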

Additional observations from a re-analysis of the deposited data

Results flagged for a closer look

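In 120 groups of 5 mice, 60 values at each age, a sample stood far from the other 4 in 9. Chance flags about 1 group in 20, so that 6 would be flagged, and groups of related miRNAs are not independent.

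Mouse 32 at 24 months stood apart in 2 values. Its rRNA-derived level was 35.2 CPM against 6.66 to 9.73 CPM in the other old mice, and its miR-122-5p, a liver miRNA, 29.7 CPM against 2.77 to 9.19 CPM. Without this mouse the log2 change of miR-122-5p was -1.06 in place of -0.09.

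Mouse 17 at 12 months had 47.2 CPM of miR-133a-3p, a muscle miRNA, against 33.7 to 35.7 CPM, and 1346 CPM of miR-30e-3p against 1488 to 1533 CPM. Mouse 18 had 23522 CPM of miR-126a-3p against 25513 to 26008 CPM, mouse 20 had 31.7 CPM of miR-30c-1-3p against 38.1 to 39.1 CPM, and mouse 21 had 811 CPM of miR-486a-5p against 455 to 555 CPM. At 24 months, mouse 34 had 83820 CPM of miR-30c-5p against 72315 to 75351 CPM, and mouse 33 had 46.4 CPM of miR-133a-3p against 42.6 to 43.6 CPM.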

How the results depend on the processing

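The count of 0 calls held in each of the 22 alternatives, and the smallest adjusted p in any of them was 0.0925, without mouse 32. No paired analysis was possible because the mice of the ages share no number. No log2 change given here was past the threshold, and the cause was not tested. With 1 mouse left out, the number at an unadjusted p under 0.05 was 38 to 72, against 59 with all mice, with 38 without mouse 33, 39 without mouse 17 and 72 without mouse 32. Sequences without overlap then numbered 14 to 26 higher and 2 to 17 lower (26 and 17 without mouse 32, 24 and 10 without mouse 21), with fewer mice to keep apart. They numbered 5 and 8 with total counts.

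Leaving out 1 mouse gave differences of -0.0452 to -0.0286 bits in entropy and -21.5 to -10.6 CPM in rRNA-derived level, and both passed the threshold without mouse 32. The medians were -0.02 to 0.05 for let-7, 0.00 to 0.07 for miR-17-92, 0.02 to 0.10 for renal tubule, -0.02 to 0.07 for senescence and 0.12 to 0.25 for striated muscle. The log2 changes were -0.02 to 0.05 for let-7f-5p, -1.06 to 0.32 for miR-122-5p, -0.04 to 0.02 for miR-126a-3p, -0.09 to 0.01 for miR-126a-5p, -0.02 to 0.04 for miR-128-3p, 0.00 to 0.07 for miR-181b-5p, -0.08 to 0.03 for miR-1a-3p, -0.05 to 0.01 for miR-200a-3p, -0.03 to 0.03 for miR-200b-3p, -0.11 to 0.03 for miR-26b-3p, -0.01 to 0.06 for miR-26b-5p, -0.04 to 0.01 for miR-29a-3p and -0.02 to 0.05 for miR-30e-3p.

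With DESeq2, RLE factors and limma, miR-200a-3p and miR-200b-3p each had -0.02. They had 0.00 each with mouse names only, and -0.01 and 0.00 both without a filter and with the 10 libraries alone. Without a filter the medians were 0.08 for striated muscle and -0.75 for pancreas. With at least 10 counts in every library, let-7f-5p, miR-26b-5p and miR-181b-5p had 0.00, miR-128-3p -0.01, miR-30e-3p -0.02, and miR-200a-3p and miR-200b-3p -0.04, with medians of 0.03 for renal tubule, 0.12 for striated muscle, 0.03 for miR-30 and -0.04 for miR-26. Summing by mature name gave miR-128-3p and miR-30e-3p -0.01 and miR-200a-3p and miR-200b-3p -0.03. With total counts let-7f-5p, miR-26b-5p and miR-181b-5p had -0.01, miR-128-3p -0.02, miR-30e-3p -0.03, and miR-200a-3p and miR-200b-3p -0.05, with medians of 0.02 for renal tubule and miR-30 and 0.00 for miR-17-92.

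With the erythroid level as a term, miR-486a-5p had 0.00 and miR-30c-1-3p 0.01. With the rRNA-derived level as a term, miR-126a-3p had 0.05, miR-126a-5p 0.07, miR-122-5p 0.53, miR-30c-1-3p and miR-26b-3p 0.02, miR-29a-3p 0.03, miR-200a-3p -0.05 and miR-22-3p 0.11, with medians of 0.06 for endothelial, 0.00 for neuron, -0.02 for senescence and 0.06 for rRNA-derived names. In the libraries with under 10 CPM of rRNA fragments, an alternative chosen after seeing the data, miR-128-3p and miR-30e-3p had -0.01, miR-30c-1-3p 0.06, miR-26b-3p 0.03, miR-29a-3p 0.00 and miR-200a-3p -0.02, with medians of 0.11 for renal tubule, 0.37 for striated muscle and 0.01 for neuron.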
